A study of Mus musculus with 8 samples.

Results

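The mitochondrial genome of the mouse was followed through all of its 37 annotated genes, which are the rows of the expression table placed on chromosome MT, among 54532 genes in all. They comprise 13 mRNA genes, 2 rRNA genes and 22 tRNA genes. RNA was measured by sequencing whole testes of 8 C57BL/6J-background male mice in which spermatogenesis had been synchronized by blocking and then restoring retinoic acid (RA), 1 library per mouse. The 4 *Sync-Spdya* fl/fl mice carried *Spdya* alleles with a floxed exon 2 and no Cre, and the 4 *Sync-Spdya* cKO mice carried the same alleles together with *Ddx4*-CreERT2, a Cre that is active in germ cells once tamoxifen is given. All 8 mice, controls included, received tamoxifen at RA7.5 and RA8.5 by the sample labels (the methods of the study give slightly earlier days) and were sampled at RA11.5, a time that the study describes as mid-late pachynema. The question asked here of each mitochondrial gene is whether its RNA differed between the genotypes by more than the spread between single libraries.

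As background, mitochondria transcribe their small circular DNA from both strands into long precursors. Most mRNAs, both rRNAs and most tRNAs are read from one strand, and mt-Nd6 with a minority of the tRNAs from the other. The tRNAs lie between the other genes and are cut out by dedicated nucleases. Most of the mRNAs, and the rRNAs, released in this way receive A tails. The proteins made are core subunits of the respiratory complexes I, III and IV and of the ATP synthase (complex V), whose remaining subunits, like all proteins that copy, process and translate mitochondrial RNA, are encoded in the nucleus. Pachytene spermatocytes contain many mitochondria and depend on respiration during their long meiotic prophase.

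The mitochondrial genes are packed so closely that neighbours overlap. On the GRCm38 mitochondrial sequence, mt-Atp8 (MT:7766-7969) shares 43 bases with mt-Atp6 (MT:7927-8607), which shares 1 base with mt-Co3 (MT:8607-9390), and mt-Nd4l (MT:9877-10173) shares 7 bases with mt-Nd4 (MT:10167-11544), each pair on the same strand. The genes mt-Nd5 (MT:11742-13565, plus strand) and mt-Nd6 (MT:13552-14070, minus strand) share 14 bases at their 3′ ends. Reads on a shared stretch cannot be given to one gene without a rule, and neither that rule nor the use of strand is given in the sources used here. mt-Atp8, the shortest mRNA gene, has the fewest bases of its own. The sequences below are from the GENCODE vM21 transcripts, 5′ to 3′ on the strand of each gene, with the shared bases in capitals.
mt-Atp8, whole: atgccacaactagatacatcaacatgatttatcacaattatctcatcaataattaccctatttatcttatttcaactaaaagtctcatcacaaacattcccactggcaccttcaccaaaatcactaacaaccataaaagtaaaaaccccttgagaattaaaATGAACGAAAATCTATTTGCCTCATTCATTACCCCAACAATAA
mt-Nd4l, whole: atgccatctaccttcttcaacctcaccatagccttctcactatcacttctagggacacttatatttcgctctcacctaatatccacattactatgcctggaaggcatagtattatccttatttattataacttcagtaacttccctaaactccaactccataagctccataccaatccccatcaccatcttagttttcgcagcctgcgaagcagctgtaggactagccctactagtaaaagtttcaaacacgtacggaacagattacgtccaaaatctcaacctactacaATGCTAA
mt-Nd5, last 40 bases: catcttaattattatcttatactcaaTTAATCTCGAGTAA
mt-Nd6, last 40 bases: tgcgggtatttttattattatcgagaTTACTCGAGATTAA

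A second feature of sequence bears on the values of these genes. A stretch of chromosome 1 of GRCm38, chr1:24611535-24616197 on the minus strand, holds 7 annotated nuclear copies that line up in order with MT:6381-11042. Over their aligned lengths, Gm28661 (copy of mt-Co2), Gm10925 (mt-Atp6), Gm28437 (mt-Co3), Gm10222 (mt-Nd4l) and Gm28439 (the first 876 bases of mt-Nd4) had 0 substitutions. Gm28438 differed from mt-Nd3 at 1 base (T3C, mitochondrial base first, counted from 1 at the 5′ end of mt-Nd3). Gm29216, which corresponds to bases 1054 to 1545 of mt-Co1, differed at 6 bases, all at its 5′ end (T1056A, C1057T, A1059G, A1060G, C1062A and A1066T, counted from the 5′ end of mt-Co1). The 60 bases of mt-Co1 from base 1054 and the first 60 bases of Gm29216 are given here because they hold every difference between that pair, in capitals.
mt-Co1, 60 bases from base 1054: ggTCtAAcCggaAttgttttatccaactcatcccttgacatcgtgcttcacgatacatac
Gm29216, first 60 bases: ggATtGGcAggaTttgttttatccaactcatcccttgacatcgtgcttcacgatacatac

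The copied interval contains 6 mRNA genes whole (mt-Co2, mt-Atp8, mt-Atp6, mt-Co3, mt-Nd3 and mt-Nd4l) and 5 tRNA genes, and it contains 31.8% of mt-Co1 and 63.6% of mt-Nd4. The remaining 5 mRNA genes (mt-Nd1, mt-Nd2, mt-Nd5, mt-Nd6 and mt-Cytb) and both rRNA genes lie outside it. No annotated copy covers chr1:24614652-24614884, which corresponds to MT:7694-7926 and so to most of mt-Atp8. Of all windows of 100 bases, 99.5% in mt-Co2, 99.5% in mt-Atp6, 99.8% in mt-Co3, 97.6% in mt-Nd3 and 98.5% in mt-Nd4l were found letter for letter in another annotated transcript, against 60.8% in mt-Nd4, 30.8% in mt-Co1, 3.2% in mt-Nd2 and 0% in mt-Nd1, mt-Nd5, mt-Nd6, mt-Cytb and mt-Atp8. How fragments that match more than one place were counted is not given in the sources used here, so the levels of the genes inside the interval, and of their copies, are uncertain.

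The deposited values are FPKM, in which the fragments sequenced from a gene are divided by its length and by a scaled size of the library. The fragments themselves could be recovered from these values, and 13978342 to 19583091 per library lay on genes. The targeted gene *Spdya* (chromosome 17) had 20.8, 21.0, 23.8 and 19.7 FPKM in the fl/fl libraries and 30.5, 22.2, 26.1 and 17.7 FPKM in cKO libraries. This level covers every exon of the gene in all cells of the testis, so it does not check the deletion of exon 2 in germ cells. One library stood apart in the results that follow, replicate 1 of the *Sync-Spdya* fl/fl group (fl/fl replicate 1), and values without it are therefore given beside those with all libraries. Across the 14942 genes tested it had the lowest value of the 8 libraries in 23.9%, a value under 0.5 of the lowest of the other 7 in 1.92%, and the highest value in 32%. Of its marker sums, those for macrophages (5 of 5 markers tested; 12.3 FPKM in fl/fl replicate 1, 15.2 to 19.9 in the other fl/fl libraries and 21.0 to 25.0 in the cKO libraries), endothelial cells (3 of 4; 4.95, then 6.31 to 11.4 and 10.7 to 13.6) and red blood cells (3 of 5; 10.8, then 14.1 to 39.8 and 22.0 to 46.7) were below those of the other 7 libraries, and that for spermatids (1 of 5; 3.32, then 1.53 to 3.02 and 2.07 to 2.57) was above them. The sum for spermatocytes (7 of 10; 1545, then 1085 to 1648 and 861 to 1336) and that for Sertoli cells (9 of 9; 1701, then 1254 to 1415 and 1632 to 1891) lay within the range of the other libraries, as did the sums for spermatogonia, Leydig cells and peritubular cells. Each sum takes every listed marker that was present in the data (9 of 10 for spermatocytes). The counts in parentheses give those that were also among the 14942 genes tested. None of these markers was at 0 in all libraries, and the part of cell composition in the results was not tested. In whole testis, fewer cells of a type cannot be told apart from less RNA per cell.

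Mitochondrial genes took 0.464%, 3.39%, 2.97% and 3.37% of all fragments in the 4 fl/fl libraries and 2.20%, 3.46%, 3.74% and 2.71% in the 4 cKO libraries. The low value of fl/fl replicate 1 rests on 64926 fragments (95% Wilson interval, 0.461% to 0.468%, which covers counting error only). The groups overlapped: the cKO mean of 3.03% ± 0.70 (SD, n = 4) stood beside a fl/fl mean of 2.55% ± 1.40 (SD, n = 4), and without fl/fl replicate 1 the latter was 3.24% ± 0.24 (SD, n = 3). The difference of the means, cKO minus fl/fl, was thus 0.48 percentage points with all libraries and -0.21 without that library. In both cases its size was below the SD of each group compared. cKO replicate 1 was the next lowest library, at 2.20%.

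**Figure D1:**
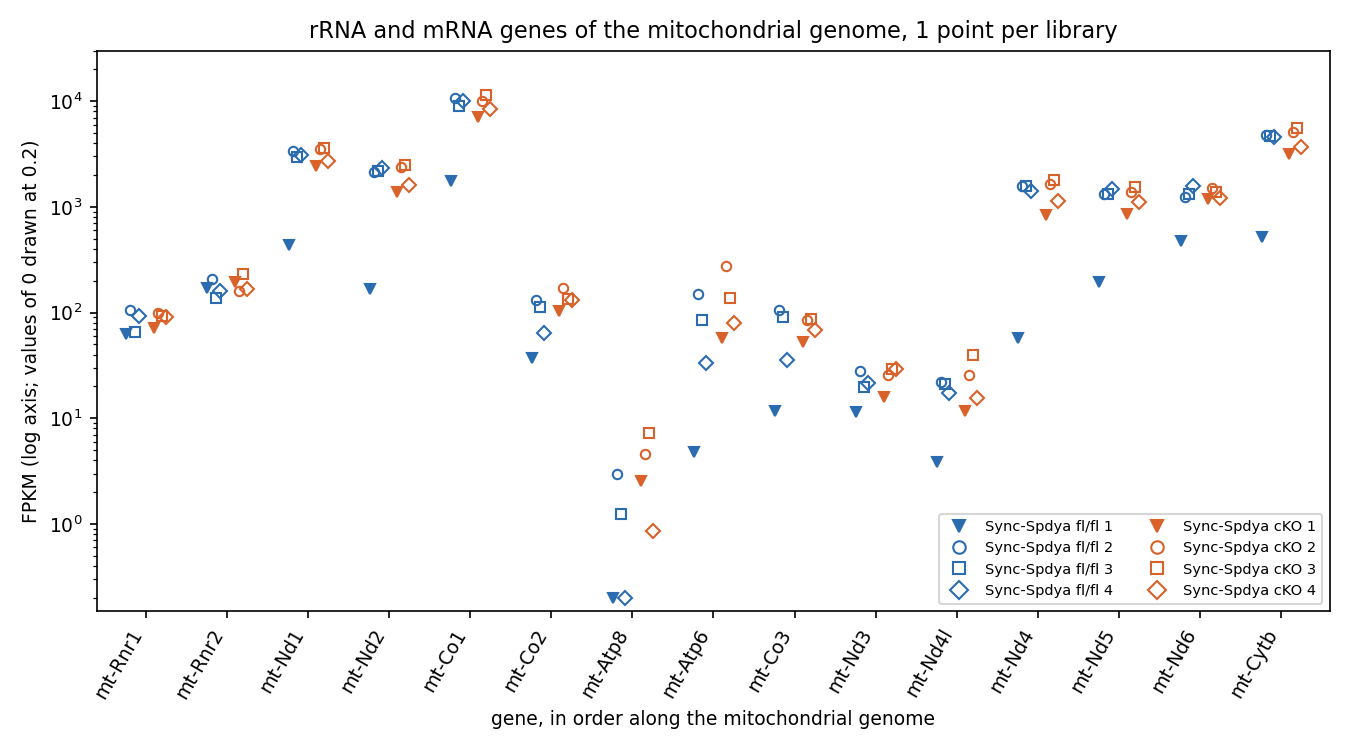
FPKM (log axis) of the 2 rRNA and 13 mRNA genes in each of the 8 libraries, in order along the mitochondrial genome, with *Sync-Spdya* fl/fl libraries in blue, cKO libraries in orange and replicate 1 of each group filled. The mRNAs outside or partly inside the copied interval lie between 834 and 11480 FPKM in 7 libraries and lower in fl/fl replicate 1, those inside it lie at or below 279 FPKM, and the rRNAs do not separate fl/fl replicate 1 from the rest.

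None of the mitochondrial genes differed between the genotypes in the test across all genes. The test was limma on log2(FPKM + 0.1), a scale that understates the change of low genes, over the 14942 genes with a mean above 1 FPKM in both groups. Of the 37 mitochondrial genes, 28 passed this filter: all 13 mRNAs, both rRNAs and 13 tRNAs. Of these, 0 passed an adjusted p below 0.05 with a log2 fold change beyond 1, where 0.0268% of all genes did. At an unadjusted limma p below 0.05 there were 2 of 28 (mt-Atp8 and mt-Tr) against 9.76% of all genes. In 0 of the 28 did the 4 values of one group lie wholly above or below those of the other, against 5.94% of all genes. Log2 fold changes were positive (cKO higher) in 25 of 28, where 50.6% of all genes had a positive value, but without fl/fl replicate 1 they were positive in 12 (54.2% of all genes) and negative in 16, and again 0 passed the adjusted p (0.0201% of all genes). The median over the 28 was 0.45 with all libraries and -0.05 without that library. The p-values set the difference of the groups against the spread between these mice, and the intervals given below are for that difference.

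Complex I, the NADH dehydrogenase that begins the respiratory chain, takes 7 subunits from the mitochondrial genome. mt-Nd1 had 437, 3345, 2954 and 3091 FPKM in the fl/fl libraries and 2438, 3521, 3635 and 2689 FPKM in cKO libraries. Its log2 fold change was 0.66 (limma, standard error 0.64, adjusted p = 0.788), and -0.05 (standard error 0.23) without fl/fl replicate 1. mt-Nd4, which encodes a proton-pumping subunit of the membrane arm, had 57.2, 1584, 1565 and 1419 FPKM in the fl/fl libraries and 834, 1629, 1795 and 1131 FPKM in cKO libraries. A single library thus lay far below the other 7, while those 7 overlapped between the genotypes. The log2 fold change of mt-Nd4 was 0.94 (limma, standard error 1.00, adjusted p = 0.811) with it and -0.24 (standard error 0.27) without it.

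The other complex I genes showed the same arrangement with different depths. mt-Nd2, another membrane subunit, had 168 FPKM in fl/fl replicate 1 and 1385 to 2466 FPKM in the other 7 libraries. mt-Nd5, the largest of these subunits, had 195 FPKM in fl/fl replicate 1 and 856 to 1541 FPKM in the others. For mt-Nd6, the mRNA of the opposite strand, the gap was narrower: 472, 1229, 1322 and 1566 FPKM in the fl/fl libraries against 1178, 1514, 1394 and 1215 FPKM in cKO libraries. The small genes mt-Nd3 (11.4 to 29.1 FPKM over the 8 libraries) and mt-Nd4l (3.85 to 39.9 FPKM) lie inside the copied interval and were the lowest of this complex. All 7 genes had positive log2 fold changes, from 0.33 for mt-Nd6 to 0.94 for mt-Nd4, with limma adjusted p from 0.763 to 0.838. Without fl/fl replicate 1 these ranged from -0.24 to 0.08 and were negative in 5 of 7.

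mt-Cytb, the cytochrome b of complex III, had 515, 4819.6, 4734 and 4625 FPKM in the fl/fl libraries and 3193, 5109, 5519.6 and 3717 FPKM in cKO libraries. The 3 remaining fl/fl mice varied little, at 4726 ± 97.7 FPKM (SD, n = 3), whereas the 4 cKO mice spread over 4385 ± 1107 FPKM (SD, n = 4) around them. Its log2 fold change was 0.66 (limma, standard error 0.72, adjusted p = 0.819) and -0.14 (standard error 0.28) without fl/fl replicate 1.

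Complex IV, cytochrome c oxidase, takes its 3 core subunits from the mitochondrial genome. mt-Co1, which carries the site of oxygen reduction, was the most abundant mitochondrial mRNA in all 8 libraries, with 1751, 10662, 8921 and 9964 FPKM in the fl/fl libraries and 7084, 10033, 11479.6 and 8384 FPKM in cKO libraries. It made up 46.3% to 50.1% of the mitochondrial mRNA fragments in 7 libraries and 58.7% in fl/fl replicate 1. Its log2 fold change was 0.51 (limma, standard error 0.65, adjusted p = 0.847) and -0.11 (standard error 0.33) without fl/fl replicate 1. mt-Co2, which receives electrons from cytochrome c, was far lower, with 37.1, 133, 113 and 64.1 FPKM in the fl/fl libraries and 103, 171, 135 and 132 FPKM in cKO libraries. The genotypes overlapped here too, and the log2 fold change of 0.78 (limma, standard error 0.37, adjusted p = 0.539) became 0.43 (standard error 0.26) without fl/fl replicate 1. mt-Co3 had 11.7 FPKM in fl/fl replicate 1, 35.6 to 107 FPKM in the other fl/fl libraries and 52.2 to 86.3 FPKM in cKO libraries.

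The ATP synthase takes the products of 2 mitochondrial genes. mt-Atp6, a subunit of the proton channel, had 4.82, 151, 84.7 and 33.3 FPKM in the fl/fl libraries and 57.0, 279, 136 and 79.8 FPKM in cKO libraries. Libraries of one genotype thus differed severalfold, and the log2 fold change of 1.59 had a standard error of 0.97 (limma adjusted p = 0.644). Without fl/fl replicate 1 it was 0.61 with a standard error of 0.62 (limma adjusted p = 0.694). mt-Atp8 had 0, 2.97, 1.25 and 0 FPKM in the fl/fl libraries and 2.53, 4.60, 7.27 and 0.866 FPKM in cKO libraries, on 0 to 25 fragments per library. A count of 0 allows up to 3 fragments, so this gene was near the limit of detection. Its fitted log2 fold change of 2.76 (limma, standard error 1.18, adjusted p = 0.497) was 4.40 with a pseudocount of 0.01 and 1.27 with one of 1, it was 2.04 without fl/fl replicate 1, and the genotypes overlapped.

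**Figure D2:**
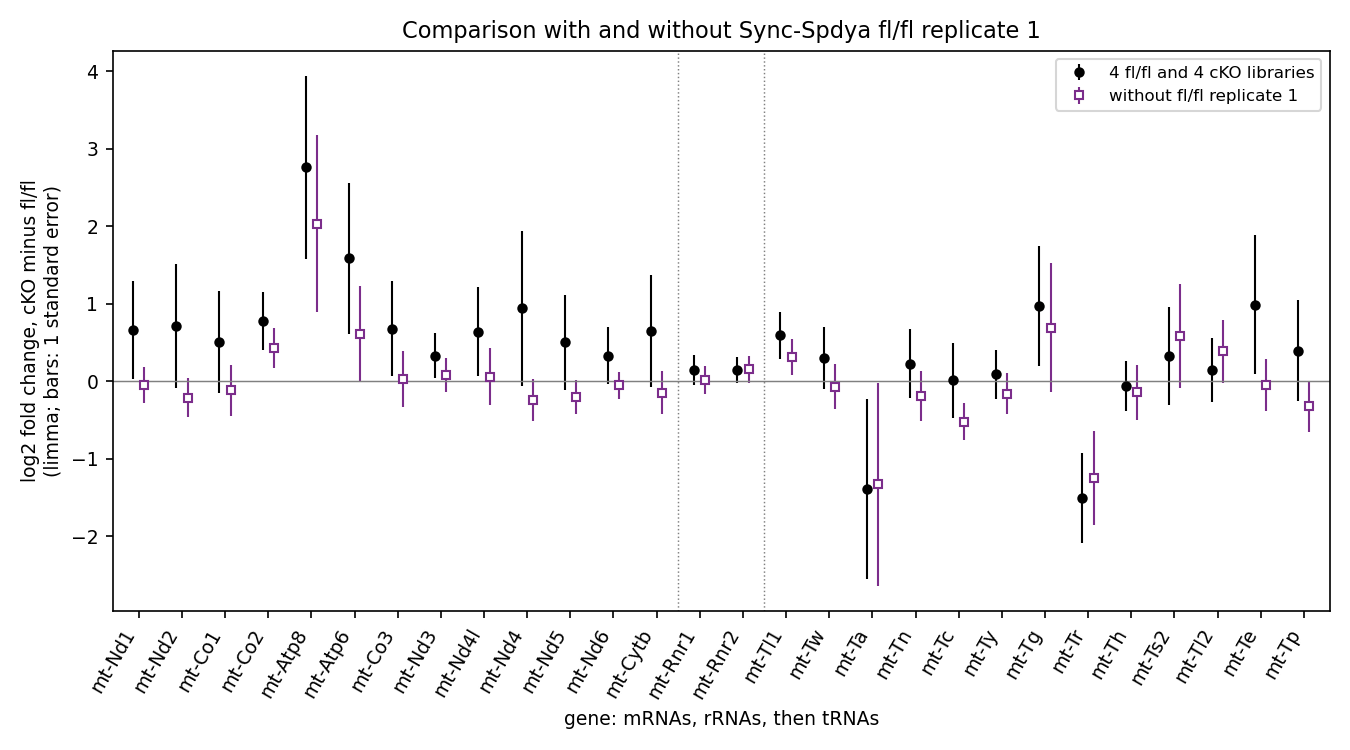
Log2 fold change (cKO minus fl/fl, log2(FPKM + 0.1), limma) of the 28 mitochondrial genes tested, with bars of 1 standard error, for all 8 libraries (black circles) and without fl/fl replicate 1 (open squares). With all libraries 25 of 28 values lie above 0, and without that library 12 do, with shorter bars for most mRNAs.

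How large a difference these libraries could have hidden follows from the limma 95% intervals. With all libraries, the intervals of the 7 mRNAs outside or partly inside the copied interval reached from -1.31 to 3.20 on the log2 scale and none of them lay wholly between -1 and 1. Without fl/fl replicate 1 the same 7 intervals reached from -0.87 to 0.64, so all 7 lay between -1 and 1, and all 7 held 0. Of the 6 mRNAs inside the copied interval, 3 had such an interval without that library, and mt-Atp8 had the widest, up to 4.64. That library was singled out by its low values for these same genes, so the intervals without it are narrower through that choice. They describe the remaining libraries and do not bound the difference between the genotypes. The SD between the 4 fl/fl libraries on the log2 scale had a median of 1.42 over the 13 mRNAs, against 0.27 over all genes tested. Among the 3 other fl/fl libraries it was 0.17 against 0.19, and among the 4 cKO libraries 0.38 against 0.15. The last value came down to 0.24 without cKO replicate 1, against 0.11 over all genes.

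The order of the mRNAs by level was nearly the same in every library. mt-Co1 had the highest level and mt-Cytb the next in 8 of 8 libraries, mt-Nd1 and mt-Nd2 followed in this order in all but fl/fl replicate 1, and mt-Atp8 came last in 8 of 8. mt-Nd4, mt-Nd6 and mt-Nd5 exchanged the next places between libraries, with 1422 ± 331, 1346 ± 152 and 1291 ± 234 FPKM over the 7 libraries other than fl/fl replicate 1 (SD, n = 7), and did not differ beyond that spread. mt-Co2 and mt-Atp6, at 122 ± 33.1 and 117 ± 82.3 FPKM, were likewise not separated, and neither were mt-Nd3 and mt-Nd4l, at 24.1 ± 5.17 and 21.9 ± 9.16 FPKM. In fl/fl replicate 1, mt-Nd6 ranked 3 of 13 and mt-Nd4 ranked 7, against ranks 5 to 7 for both in the other libraries.

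The level of an mRNA went with its place relative to the copied interval. Leaving out fl/fl replicate 1, the 7 genes outside or only partly inside it had 834 to 11480 FPKM, whereas the 6 genes inside had 0 to 279 FPKM. The latter held 0.339% to 1.18% of the mitochondrial mRNA fragments over the 8 libraries. Complexes I and IV had members on both sides of this boundary, and both ATP synthase genes lay inside. mt-Co1 had 148 times the mean FPKM of Gm29216, its partial copy, while mt-Co2 had 1.06 times that of Gm28661. The levels of mt-Atp6, mt-Co3 and mt-Nd4l were 1.70, 1.93 and 1.83 times those of Gm10925, Gm28437 and Gm10222, that of mt-Nd3 was 4.68 times that of Gm28438, and that of mt-Nd4 89.7 times that of Gm28439. The part of shared sequence in these levels was not tested.

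**Figure D3:**
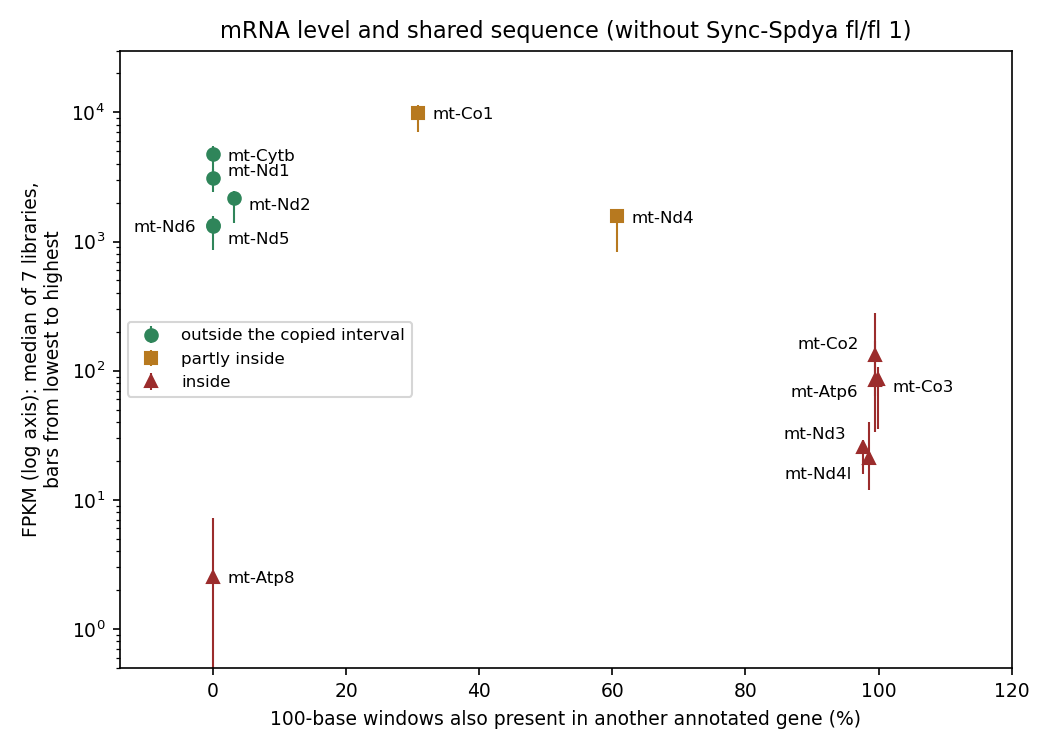
Level of each mitochondrial mRNA (FPKM, log axis; median of the 7 libraries other than fl/fl replicate 1, with bars from the lowest to the highest) against the percentage of its 100-base windows that occur in another annotated gene. The 5 genes with 97.6% or more shared windows and mt-Atp8 have medians far below those of the other 7, and mt-Atp8 lies inside the copied interval although it has 0% shared windows with annotated genes, and its bar runs off the log axis to 0.

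The nuclear copies themselves carried fragments in all libraries. Gm28661 had 49.7, 128, 96.8 and 55.4 FPKM in the fl/fl libraries and 118, 183, 113 and 92.5 FPKM in cKO libraries, and Gm10925 had 4.73, 77.2, 67.7 and 43.5 FPKM against 52.4, 88.1, 95.9 and 57.0 FPKM. fl/fl replicate 1 was the lowest library for 7 of 7 copies, by 1.88-fold (Gm28661) to 13.3-fold (Gm10925) relative to the mean of the other fl/fl libraries. The mitochondrial genes with the same sequences were lower there by 2.79-fold (mt-Co2) and 18.6-fold (mt-Atp6). Gene and copy were not alike in every pair. The gap was 26.6-fold for mt-Nd4 against 3.43-fold for Gm28439, and 5.63-fold for mt-Co1 against 8.39-fold for Gm29216. For mt-Nd4l, mt-Co3 and mt-Nd3 it was 5.21-fold, 6.63-fold and 2.03-fold, against 9.08-fold, 7.44-fold and 2.40-fold for their copies. Of the 7 copies, 0 passed the test (limma, median log2 fold change 0.79, and 0.21 without fl/fl replicate 1; lowest adjusted p = 0.539), against 0.0268% of all genes.

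The rRNAs form the scaffold of the mitochondrial ribosome and behaved differently from the mRNAs in fl/fl replicate 1. mt-Rnr2, the large subunit rRNA, had 171, 208, 138 and 161 FPKM in the fl/fl libraries and 193, 160.0, 231 and 168 FPKM in cKO libraries. mt-Rnr1, the small subunit rRNA, had 62.1, 106, 64.9 and 92.6 FPKM in the fl/fl libraries and 70.7, 98.7, 92.0 and 91.0 FPKM in cKO libraries. fl/fl replicate 1 thus lay inside the range of the others for mt-Rnr2, and marginally below it for mt-Rnr1. The log2 fold changes were 0.15 (limma, standard error 0.17, adjusted p = 0.823) for mt-Rnr2 and 0.14 (standard error 0.19, adjusted p = 0.857) for mt-Rnr1, and 0.16 and 0.02 without that library.

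Since the mRNAs of fl/fl replicate 1 were low and its rRNAs were not, the composition of its mitochondrial RNA was shifted. The rRNAs made up 6.65% of its mitochondrial fragments, against 0.933% to 1.68% in the other 7 libraries. Their share of all fragments, 0.0309%, lay within the 0.0277% to 0.0460% of the others. mt-Nd6 made up 5.32% of its mitochondrial mRNA fragments, against 1.94% to 2.80%, and mt-Nd4 made up 1.71% against 5.26% to 7.24%. The ratio of mt-Nd4 to mt-Nd6 in FPKM was 0.121 there and 0.708 to 1.29 in the others, and that of mt-Rnr2 to mt-Nd1 was 0.391 and 0.0454 to 0.0793. cKO replicate 1, the library with the next lowest mitochondrial share, also had the next highest rRNA and mt-Nd6 percentages and the next lowest mt-Nd4 percentage. Without fl/fl replicate 1 the genotypes had similar compositions, with rRNAs at 1.10% ± 0.18 (SD, n = 3) of mitochondrial fragments in fl/fl and 1.32% ± 0.27 (SD, n = 4) in cKO, and mt-Nd6 at 2.27% ± 0.32 and 2.40% ± 0.33 of mRNA fragments.

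**Figure D4:**
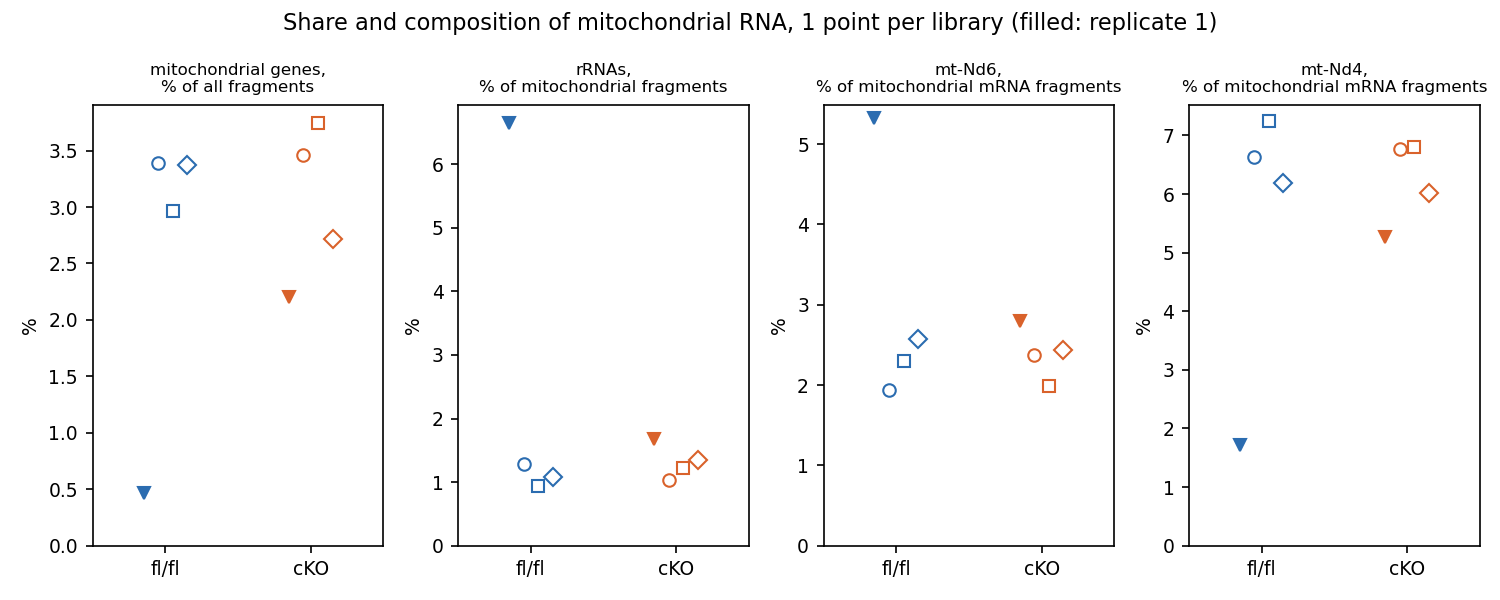
Percentage of all fragments on mitochondrial genes, of mitochondrial fragments on rRNAs, and of mitochondrial mRNA fragments on mt-Nd6 and on mt-Nd4, 1 point per library with replicate 1 of each group filled. fl/fl replicate 1 is the lowest library for the mitochondrial share (0.464%) and mt-Nd4 (1.71%) and the highest for the rRNAs (6.65%) and mt-Nd6 (5.32%), and the remaining libraries overlap between the genotypes in each panel.

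The size of the gap in fl/fl replicate 1 differed from gene to gene along the mitochondrial genome. Relative to the mean of the other fl/fl libraries, mt-Nd4 was lower 26.6-fold, mt-Atp6 18.6-fold, mt-Nd2 13.1-fold, mt-Cytb 9.17-fold, mt-Nd1 7.16-fold, mt-Nd5 7.05-fold, mt-Co3 6.63-fold, mt-Co1 5.63-fold and mt-Nd4l 5.21-fold. It was smaller for mt-Nd6 (2.91-fold), mt-Co2 (2.79-fold) and mt-Nd3 (2.03-fold), and mt-Rnr1 was lower 1.41-fold. On the log2 scale, 25 of the genes tested (0.167%) lay further below the mean of the other fl/fl libraries in this library than mt-Nd4 did. Genes inside and outside the copied interval were found at both ends of this order, and so were members of complex I. In the cKO group, replicate 1 had the lowest value of the 4 libraries for 12 of 13 mRNAs, at 0.345 (mt-Atp6) to 0.857 (mt-Nd6) of the mean of the other 3. The mRNAs come from shared precursors, so these are not 12 independent values. On the log2 scale, 0.743% (mt-Atp6) to 20.9% (mt-Nd6) of the genes tested lay further below the other cKO libraries in cKO replicate 1.

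**Figure D5:**
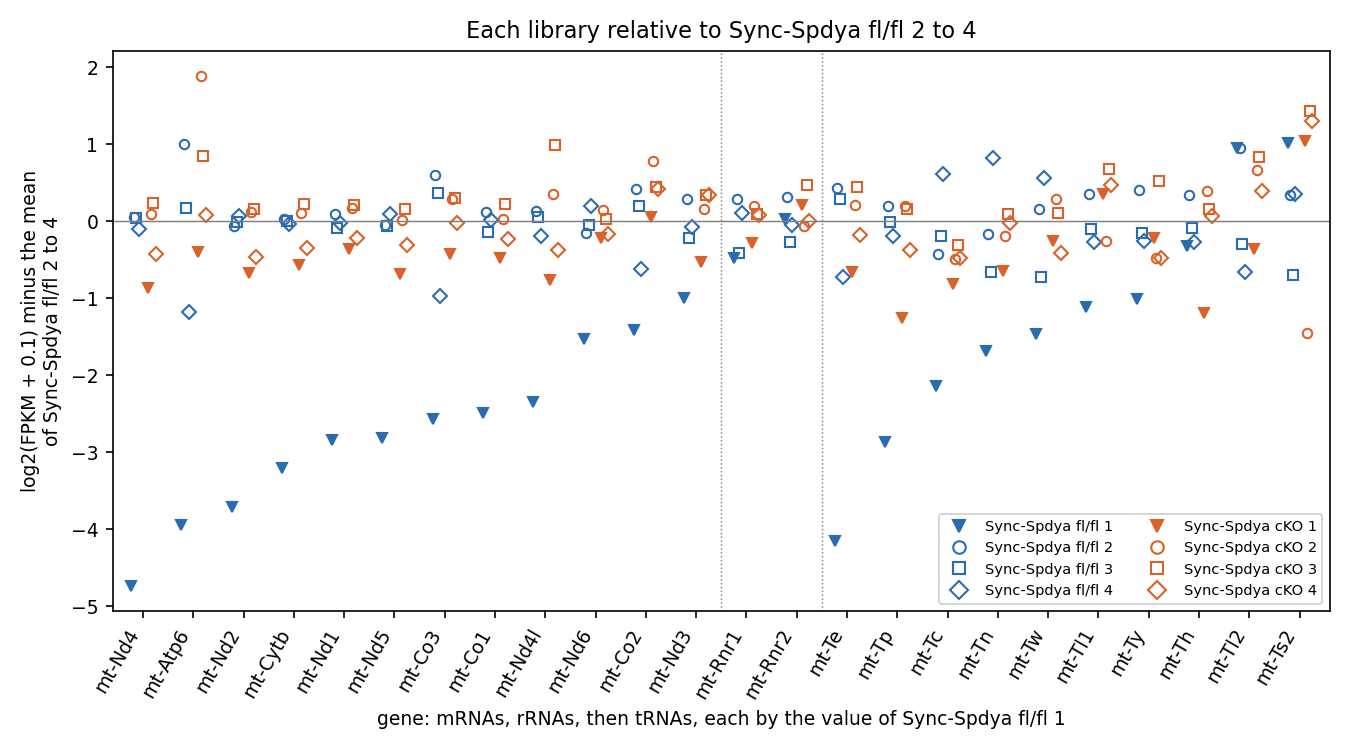
log2(FPKM + 0.1) of each library minus the mean of fl/fl replicates 2 to 4, for the mitochondrial genes tested that had a mean of at least 10 fragments, with mRNAs, rRNAs and tRNAs in separate blocks. fl/fl replicate 1 (filled blue triangles) ranges from -4.73 for mt-Nd4 to -0.997 for mt-Nd3 among the mRNAs, lies near 0 for mt-Rnr2 (0.03) and ranges from -4.15 (mt-Te) to 1.02 (mt-Ts2) among the tRNAs.

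The tRNA genes are 59 to 75 bases long, shorter than the reads of these libraries, so a fragment counted on one of them may belong to a precursor or to a neighbouring gene. Of the 22 genes, 3 had 0 fragments in all libraries (mt-Tf, mt-Ts1 and mt-Td) 12 (these included) had fewer than 20 in each library, and 13 passed the filter on low values. The 6 genes with the most fragments were mt-Te, mt-Tp, mt-Tc, mt-Tl1, mt-Tn and mt-Ty, and 5 of these (all but mt-Tl1) lie on the minus strand of the reference. The pair with the highest levels, for glutamate and proline, lie on either side of mt-Cytb (mt-Te, MT:14071-14139, and mt-Tp, MT:15356-15422, with mt-Tt between it and mt-Cytb) and have these sequences, shown because they had the deepest tRNA values.
mt-Te, whole: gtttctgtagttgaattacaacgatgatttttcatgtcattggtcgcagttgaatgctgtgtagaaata
mt-Tp, whole: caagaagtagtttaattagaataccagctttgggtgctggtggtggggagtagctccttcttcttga

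mt-Te had 8.85, 213, 194 and 96.4 FPKM in the fl/fl libraries and 100.2, 183, 217 and 140.0 FPKM in cKO libraries. mt-Tp had 26.2, 219.8, 190.0 and 168 FPKM in the fl/fl libraries and 80.1, 221, 214 and 148 FPKM in cKO libraries. For both genes fl/fl replicate 1 was the lowest library, 19.0-fold and 7.36-fold below the mean of the other fl/fl libraries, and the other libraries overlapped between the genotypes. The log2 fold changes were 0.99 (limma, standard error 0.90, adjusted p = 0.777) for mt-Te and 0.40 (standard error 0.65, adjusted p = 0.883) for mt-Tp, and turned to -0.05 and -0.32 without that library. fl/fl replicate 1 was also the lowest of the 8 libraries for the cysteine, asparagine, leucine and tyrosine tRNAs mt-Tc (4.66-fold below the mean of the other fl/fl libraries), mt-Tn (3.54-fold), mt-Tl1 (2.19-fold) and mt-Ty (2.07-fold).

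Not all tRNA genes followed. Of the 22, fl/fl replicate 1 was the lowest library in 7, 5 of the 8 on the minus strand and 2 of the 14 on the plus strand. It was the highest in 4, all on the plus strand. The strands differ in depth: 9 of the 14 plus-strand genes had fewer than 20 fragments in every library, against 3 of the 8 others. Among the 13 genes tested it was the lowest in 5 of 6 minus-strand and 2 of 7 plus-strand genes, and the highest in 2. Over all genes tested it was the lowest in 23.9% and the highest in 32%. Most of the genes in which it was the highest had few fragments: in fl/fl replicate 1, mt-Tv had 1, mt-Tm 4 and mt-Tr 8. The deepest of them, mt-Tl2, had 34.4 FPKM in fl/fl replicate 1 and 11.2 to 34.2 FPKM in the others, on 13 to 44 fragments per library. mt-Tr, named here after its values were seen, had the smallest p among the tRNAs (limma, log2 fold change -1.50, standard error 0.58, adjusted p = 0.461; -1.25 without fl/fl replicate 1). It rests on 1 to 8 fragments per library, 8, 5, 8 and 3 in the fl/fl libraries and 3, 1, 1 and 6 in the cKO libraries, and the genotypes overlapped.

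The nuclear partners of the mitochondrial genes were examined from lists of known subunits and factors. Of 84 nuclear genes for subunits of complexes I to V present in the table, 82 were tested and 0 passed (limma adjusted p below 0.05, against 0.0268% of all genes); their median log2 fold change was 0.06, and 0.08 without fl/fl replicate 1. At an unadjusted p below 0.05 there were 3 higher in cKO (4.81% of all genes) and 0 lower (4.96%). Groups did not overlap, with cKO higher, in 3: Cox8a, a small complex IV subunit (57.7 ± 19.6 FPKM in fl/fl and 92.5 ± 7.98 FPKM in cKO, SD, n = 4; log2 fold change 0.75, limma standard error 0.25, adjusted p = 0.385), Ndufa4, a subunit associated with complex IV (21.3 ± 3.84 and 27.6 ± 0.829 FPKM; 0.39, adjusted p = 0.406) and Atp5c1, the gamma subunit of the ATP synthase (91.4 ± 2.81 and 102 ± 4.44 FPKM; 0.16, adjusted p = 0.611). Without fl/fl replicate 1, which had the lowest Cox8a level of the 8 libraries, the log2 fold changes were 0.49 for Cox8a, 0.26 for Ndufa4 and 0.15 for Atp5c1 (limma, lowest adjusted p = 0.173). The 3 genes are 3.66% of the 82, where 3.21% of all genes did so.

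Of the factors that transcribe, process, modify and translate mitochondrial RNA, 0 of 51 tested passed, against 0.0268% of all genes. Their median log2 fold change was -0.08 (-0.02 without fl/fl replicate 1). Hsd17b10, a subunit of mitochondrial RNase P, had 18.1 ± 1.86 FPKM in fl/fl and 22.0 ± 2.16 FPKM in cKO (SD, n = 4; log2 fold change 0.28, limma adjusted p = 0.467; 0.31 without fl/fl replicate 1), without overlap. Mtif3, a mitochondrial translation initiation factor, had 2.87 ± 0.188 and 2.49 ± 0.104 FPKM (-0.20, limma adjusted p = 0.642; -0.15 without that library), likewise without overlap, and these are 1 gene higher and 1 lower, where 3.21% and 2.74% of all genes did so. Of the proteins of the mitochondrial ribosome, 0 of 77 tested passed, against 0.0268% of all genes (median 0.04, and 0.08 without that library). Mrps18b, of the small subunit, was the 1 gene whose groups did not overlap. This is 1.30% of the 77, where 3.21% of all genes were higher in cKO without overlap. Mrps18b had 6.78 ± 2.21 FPKM in fl/fl and 9.13 ± 0.569 FPKM in cKO (log2 fold change 0.50, limma adjusted p = 0.566). fl/fl replicate 1 had 3.51 FPKM of Mrps18b, and without it the log2 fold change was 0.21 (limma adjusted p = 0.331).

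In fl/fl replicate 1 the summed levels of these nuclear partners were above those of the other libraries. The summed level of the nuclear respiratory subunits was 5861 FPKM there, above the 3819 to 5315 FPKM of the other 7 libraries, and that of the expression factors was 696 FPKM against 517 to 597 FPKM. The mitochondrial ribosomal proteins summed to 1713 FPKM against 1157 to 1524 FPKM. Single subunits went both ways, since fl/fl replicate 1 was the highest library for 34 of the 82 respiratory genes tested (41.5%, against 32% of all genes) and the lowest for 23 (28.0%, against 23.9% of all genes). The transcripts that stay in the nucleus or lack a poly(A) tail went both ways too: of 12 listed, this library was the highest for 3 (Gm26917, Rn7sk and Neat1) and the lowest for 2 (Meg3 and Kcnq1ot1), it lay within the others for 3, Malat1 among them, and 4 were at 0 in all libraries. Gm26917, which is annotated as a long noncoding RNA, had 705 FPKM against 37.1 to 133 FPKM. Rn7sk, an RNA polymerase III product, had 12.4 FPKM against 0.553 to 2.71 FPKM (both named after their values were seen). The Rn7sk values rest on few fragments, 54 in fl/fl replicate 1 and 3 to 17 in the other libraries. Malat1, a nuclear long noncoding RNA, had 129.6 FPKM against 67.9 to 158.2 FPKM, and Meg3 had 0.451 FPKM against 0.608 to 2.62 FPKM. Genes annotated as nuclear rRNA took 0.295% of its fragments against 0.0215% to 0.107% in the others. The part of these differences in the mitochondrial levels was not tested. Of the 5 such transcripts tested, of 12 listed, 0 passed the comparison of the genotypes (limma, lowest adjusted p = 0.518), against 0.0268% of all genes. Their median log2 fold change was -0.31, and 0.24 without fl/fl replicate 1.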

How the data were processed

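Bulk RNA-seq libraries of testes, 4 from *Sync-Spdya* fl/fl mice and 4 from cKO mice, were analysed as labelled. Per the labels, RNA was purified with a column kit (the study's methods name Trizol) and libraries were made with an mRNA-seq kit. The sequencing company's software made the FPKM values the authors deposited, in 1 table and in per-library files with equal values in all 54532 rows. The submitters' processing notes name GRCm38/mm10, and the aligner, counter and annotation are not given in the sources used here. The members and gene lists were chosen with earlier results of these data known.

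FPKM multiplied by length was a whole number of fragments in 100% of values above 0 (tolerance 0.02). At this depth 3 fragments on 1 kilobase, the most that a count of 0 allows, are worth at most 0.229 FPKM. The chi-square per gene between replicates was at least 3.94 times its value under sampling noise, and every library was kept as 1 sample. Genes with a mean above 1 FPKM in both groups, of any biotype, were tested on log2(FPKM + 0.1) with limma 3.58.1 (eBayes with trend, R 4.3.3), all 8 libraries, without covariates. Calls required a Benjamini-Hochberg adjusted p below 0.05 and a log2 fold change beyond 1. On simulated fragments for these 14942 genes, 192 of 200 genes changed by 1.5 were recovered (dispersion 0.05) with 4 false calls. All simulated libraries shared this dispersion and none stood apart. The fl/fl SD of the 13 mitochondrial mRNAs had a median of 1.42 on the log2 scale. The simulation therefore does not give the power of the test for the mitochondrial genes. Summed shares and ratios are given without a test. Same-numbered libraries deviated together at correlations of -0.01 to 0.21 over genes, under 0.1 in 2 of 4 pairs, and the numbers were therefore not used for pairing.

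Named genes are all mitochondrial mRNAs and rRNAs, the 6 tRNAs with the most fragments, the nuclear copies, Spdya, and of each nuclear list up to 3 with the smallest p whose groups did not overlap. Overlaps and copies were searched with Biopython 1.88 among GENCODE vM21 transcripts, not in the whole genome, with windows of 50 and 100 bases. No factor named Prorp was matched in the table. Alternatives were other pseudocounts, filters and scalings, limma array weights, voom on recovered fragments, eBayes without trend, a block for the replicate number and leaving out each library.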

Additional observations from a re-analysis of the deposited data

Results flagged for a closer look

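In groups of 4 libraries, 78 were examined for a library separated from the other 3 by nearly the whole range of its group. This was found in 11, 9 of them fl/fl replicate 1. Chance would give about 3.9 in all if the groups were independent. They are not, since many of the values found are related mitochondrial measures of the same library, so the counts cannot be compared. The values of fl/fl replicate 1 were 0.464% for the mitochondrial share of fragments and 6.65% for rRNAs among mitochondrial fragments. It had 437 FPKM for mt-Nd1, 168 FPKM for mt-Nd2, 57.2 FPKM for mt-Nd4, 195 FPKM for mt-Nd5 and 515 FPKM for mt-Cytb, each the lowest of its group. It also had the highest Mtif3 level of its group, 3.16 FPKM, and the lowest Mrps18b level, 3.51 FPKM. In other fl/fl libraries, replicate 3 had the lowest Hsd17b10 level, 15.3 FPKM, and replicate 2 the highest Atp5c1 level, 95.6 FPKM.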

How the results depend on the processing

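With every setting tried, 0 mitochondrial genes passed the adjusted p (lowest 0.192, with limma array weights) and 0 genes of the nuclear lists did (lowest 0.088). The study's protein-coding filter left no nuclear copies and no non-polyadenylated RNAs to test. At an unadjusted limma p below 0.05 there were 0 to 6 mitochondrial genes, where 5.41% to 18.1% of all genes passed. The 6 of 28 came without fl/fl replicate 2, where 10.3% of all genes passed. Over all genes, 0 (as with eBayes without trend) to 44 (with array weights) passed the adjusted p, and the calls ranged from 0 to 21 around 4. In the settings where 0 of all genes passed, no mitochondrial or listed gene could pass. The median log2 fold change of the 13 mRNAs, 0.66, ranged from -0.05 (without fl/fl replicate 1) to 0.93 with 1 library left out, and was 0.23 with array weights. In the same way the difference in mitochondrial share, 0.48 percentage points, ranged from -0.21 (without fl/fl replicate 1) to 0.76, that in rRNA fragments per 100 mRNA fragments from -1.84 to 0.23 (without fl/fl replicate 1), and that in the mt-Nd6 share of mRNA fragments from -1.001 to 0.13 (without fl/fl replicate 1).

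Direction turned without fl/fl replicate 1 for the genes that follow, given with the range over the libraries left out: mt-Nd1 (-0.047 to 0.93), mt-Nd2 (-0.21 to 1.05), mt-Co1 (-0.11 to 0.76), mt-Nd4 (-0.24 to 1.36), mt-Nd5 (-0.20 to 0.77), mt-Nd6 (-0.050 to 0.53), mt-Cytb (-0.14 to 0.93), mt-Tp (-0.32 to 0.71), mt-Te (-0.046 to 1.48), mt-Tc (-0.52 to 0.40), mt-Tn (-0.19 to 0.64), mt-Ty (-0.16 to 0.31) and Gm28438 (-0.031 to 0.52). Without cKO replicate 3 it turned for mt-Tc (-0.058) and mt-Ty (-0.14), with array weights (weight 0.176 for fl/fl replicate 1) for mt-Tc (-0.15), mt-Ty (-0.032) and Gm28438 (-0.071), and with voom for mt-Tc (-0.040). Of 680 values of 35 named genes, 661 kept direction and side of the threshold. The groups share replicate numbers only. With the replicate number as a block, 0 mitochondrial genes passed (limma, lowest adjusted p = 0.237), as did 0 of all genes. The median of the mRNAs stayed at 0.66. The scalings moved the median of all genes by at most 0.04. Depth limits mt-Atp8 and the tRNAs.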
